A study of Mus musculus with 6 samples.

Results

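The genes described here encode substrate receptors other than CIS and the SOCS proteins that dock on elongin B and elongin C, and they were taken by name. There were 39 such genes, and 35 of them were among the 22400 genes with a count in the 6 samples. All levels and fold changes given here come from gene sums of the transcript counts unless another scale is named, since 13 of the 39 were outside the gene-level table that the authors deposited and 26 were in it. The samples were CD4+ T cells of C57BL/6 mice aged 8 to 10 weeks, isolated as naïve cells, activated and kept in Th9 culture for 48 h, with 3 WT and 3 Cul5 cKO samples. Cul5 cKO stands for Cul5fl/fl CD4-Cre mice, in which exons 9 to 11 of Cul5 are removed in all cells that have expressed CD4-Cre, CD8 T cells included. The paper's wild type controls were Cul5fl/fl littermates without CD4-Cre, apart from experiments that needed differently marked cells. With such controls the genotypes also differ in the Cre transgene. Cells of both genotypes were stimulated with anti-CD3 (2 µg/ml) and anti-CD28 (1 µg/ml) while IL-4 was added at 20 ng/ml, TGF-β at 2.5 ng/ml and a blocking antibody to IFN-γ at 10 µg/ml, and poly-A RNA was sequenced in single reads of 50 bases. The labels number the replicates of each genotype, and the sources used here do not say whether these came from separate mice, so the p-values measure the spread between these samples.

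Cullin-RING ligases attach ubiquitin to proteins that a substrate receptor brings to the cullin. A receptor with a SOCS box binds elongin B and C through the first part of the box and usually Cul5 through the second, and a receptor with the related VHL box usually binds Cul2 in place of Cul5. The part of the receptor outside the box, such as ankyrin repeats, a SPRY domain, WD40 repeats or a kelch propeller, recognizes the substrate. In T cells the receptors best known for this are CIS and the SOCS proteins, which act on cytokine signaling. The comparison asked whether the transcripts of the other receptors differed when the Cul5 scaffold was deleted. By their usual partner, 29 of the 39 genes belong to the Cul5 type (the ASB, SPSB, WSB, NEURL2, RAB40, TULP4 and PCMTD families) and 10 to the Cul2 type (FEM1, KLHDC, LRR1, APPBP2, ZYG11B and ZER1).

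Cul5 itself was at 64.4, 69.3 and 65.0 CPM (counts scaled to a common TMM-adjusted library size) in WT and at 10.6, 14.2 and 13.1 CPM in Cul5 cKO, a log2 fold change of -2.39 (adjusted p = 0.000992, edgeR quasi-likelihood test with Benjamini-Hochberg adjustment), so every sample matched its label. Totals were between 23111689 and 23454552 counts in 5 samples and 3944803 in WT replicate 3, whose root mean square log2 distance to the others was 0.59 to 0.79, against 0.42 to 0.59 among the others. The 5 CD4 T cell markers summed to between 1266 and 1333 CPM in WT and between 1165 and 1175 CPM in Cul5 cKO, without overlap. Among these Cd4 was at 98.6% of WT, Cd3e at 78.7% (adjusted p = 0.0987, edgeR) and Cd28, the costimulatory receptor, at 44.3% (adjusted p = 0.0205, edgeR). Of 3 genes of the Th9 culture, Il9 was at 266% of WT (adjusted p = 0.0112, edgeR) and Batf at 131% (adjusted p = 0.112, edgeR). The 3 B cell markers summed to 26.5 CPM in Cul5 cKO replicate 3 and to between 1.56 and 6.07 CPM in the others, and the 2 CD8 markers to 11.6 CPM in the same sample and to between 4.30 and 6.53 CPM in the others. The 4 myeloid markers summed to between 1.92 and 6.45 CPM in WT and between 0.999 and 7.98 CPM in Cul5 cKO. Among them Itgam was at 32.8% of WT (adjusted p = 0.194, edgeR). Lyz2, Csf1r and Cd14 had higher means in Cul5 cKO and too few counts to test. In Cul5 cKO replicate 2, which had the sum of 7.98 CPM, Lyz2 had 64 counts and Csf1r 60. Both had at most 6 counts in any other sample. Of the 2 NK markers, Ncr1 had no count, and Klrb1c had 2, 3 and 1 counts in WT and none in Cul5 cKO. The part of these marker differences in the receptor levels was not tested. In such bulk samples, fewer cells that express a gene and less of its RNA per cell cannot be told apart.

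Too few counts were present to test 11 of the 39 receptors. Asb9, Asb10, Asb15 and Asb18 had no count in any sample, which allows up to 0.0252 CPM over the pooled 6 samples (3 counts, counting error only). Asb4, Asb11, Asb12, Asb17, Spsb4 and Rab40b had at most 3 counts in any sample. Asb14 had 4, 3 and 0 counts in WT and 4, 4 and 2 in Cul5 cKO. None of these 11 levels allowed a difference between the genotypes to be detected at this depth. Several of these receptors are best known from other tissues, such as ASB9, which binds creatine kinase, and of 3 skeletal muscle markers Ckm and Acta1 were each below 1 CPM in every sample while Mylpf, a myosin light chain, was at 4.29 to 5.94 CPM. Asb5 and Neurl2, a receptor known from muscle, passed the filter on counts at 0.498 ± 0.0195 and 0.981 ± 0.248 CPM in the WT group (SD, n = 3), although neither was in the deposited gene-level table. All Asb5 counts in WT were on a non-coding transcript, and 7.18% of its stretches of 50 bases also occur in Spcs3 on the other strand. For Neurl2, 28.6% of such stretches also occur in Ctsa on the other strand. Ctsa was at 73.1 ± 3.44 CPM in the WT group (SD, n = 3). The levels of both receptors are therefore uncertain.

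Levels of different genes were compared on a scale per transcript length, TPM, which divides the reads of a transcript by its length and scales each sample to the same total. Summed over all transcripts of a gene, the 6 highest receptors in WT were Tulp4, Wsb1, Klhdc3, Spsb1, Klhdc2 and Wsb2. Tulp4, a tubby-like protein with WD40 repeats and a SOCS box, stood at 271 ± 79.9 TPM and Wsb1 at 78.7 ± 7.70 TPM (SD, n = 3). Restricted to transcripts annotated as protein coding, the order changed. Klhdc3, a Cul2 receptor for C-terminal degrons, was first with 62.2 ± 3.38 TPM, followed by Spsb1, a SPRY-domain receptor known for inducible nitric oxide synthase, with 53.1 ± 2.22 TPM. Klhdc2, the receptor for proteins ending in diglycine, followed with 40.9 ± 2.68 TPM and Wsb1 with 39.1 ± 7.46 TPM, and these levels did not differ beyond their spread. Wsb2 had 29.9 ± 2.32 TPM and Spsb3, a receptor known for nuclear cGAS, had 28.2 ± 0.752 TPM, again without a gap beyond their spread. Tulp4 moved from the first place to place 18, with 8.59 ± 0.999 TPM. Of the 27 gaps between neighbours in this order, 6 were larger than the sum of both SDs.

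**Figure D1:**
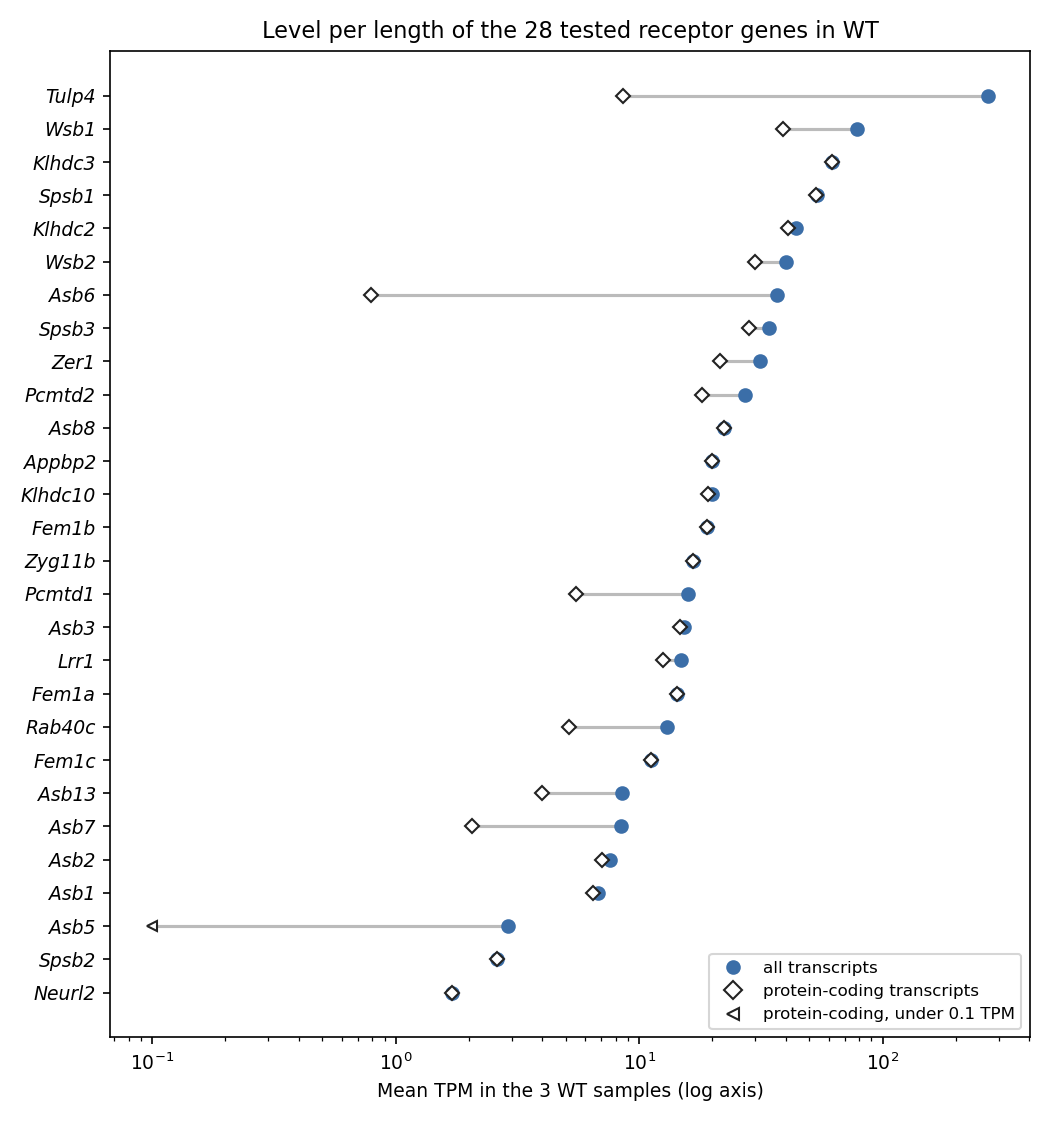
Mean TPM of the 28 tested receptor genes in the 3 WT samples on a log axis, with filled circles for all transcripts of a gene and open diamonds for its protein-coding transcripts (open triangle: under 0.1 TPM). Tulp4 falls from 271 to 8.59 TPM and Asb6 from 36.9 to 0.793 TPM when only protein-coding transcripts are summed, while Klhdc3 and Spsb1 hardly move.

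The level of Tulp4 rested on 1 short non-coding transcript. Tulp4-211 (789 bases) held 87.3%, 90.2% and 93.5% of the gene's TPM in the 3 WT samples and 87.3%, 90.8% and 92.2% in the Cul5 cKO samples. Its last exon, at chr17:6121195-6121884 in GRCm38, is the reverse complement of the messenger RNA of Fbl (fibrillarin, a nucleolar RNA methyltransferase on chromosome 7) over 664 bases with 0 differences. Of the 740 windows of 50 bases in Tulp4-211, the read length of this experiment, 615 (83.1%) also occur in transcripts of Fbl, and 628 occur in Gm5812, a processed pseudogene annotated over 677 bases of Tulp4 exons on the other strand. Gm5812 was at 2.65, 0.822 and 0 CPM in WT and at 1.78, 2.81 and 1.16 CPM in Cul5 cKO. These windows were compared on either strand, and whether the library kept strand is not given in the sources used here. Below are 120 bases of this stretch, from GENCODE vM21, shown because a read from it fits both genes if strand is ignored. They are bases 604 to 723 of Tulp4-211, reverse complemented, and bases 473 to 592 of Fbl-201, which lie in its coding sequence (bases 100 to 1080), and they are in lower case throughout because no base differs.
Tulp4-211: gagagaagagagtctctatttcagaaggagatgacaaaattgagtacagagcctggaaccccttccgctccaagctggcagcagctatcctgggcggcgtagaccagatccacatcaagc
Fbl-201: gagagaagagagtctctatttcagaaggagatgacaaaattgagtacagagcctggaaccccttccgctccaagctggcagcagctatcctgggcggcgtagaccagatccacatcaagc

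Tulp4 as a gene had 143, 176 and 211 CPM in WT and 161, 187 and 161 CPM in Cul5 cKO, and its groups overlapped. Fbl had 200, 206 and 134 CPM in WT and 210, 227 and 248 CPM in Cul5 cKO. WT replicate 3, the shallow library, had the highest Tulp4 and the lowest Fbl of the 6 samples, and the sum of both genes there, 345 CPM, lay within the range of the other WT samples (344 and 382 CPM). The protein-coding transcripts of Tulp4 had 51.8, 55.4 and 48.8 CPM in WT and 55.6, 48.4 and 44.2 CPM in Cul5 cKO. The log2 fold change of Tulp4 was -0.05 (95% confidence interval -0.38 to 0.27) over all transcripts and -0.11 over coding transcripts, and 0.08 over all transcripts without WT replicate 3. The 2 long coding transcripts share 30.5% and 33.7% of their windows with other genes, most of these with the pseudogene Gm2792, which was at 0.299, 0 and 6.83 CPM in WT and at 0, 0.175 and 0 CPM in Cul5 cKO, so the coding level of Tulp4 is uncertain as well. How many of the reads given to Tulp4-211 came from Fbl or Gm5812 was not tested.

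**Figure D2:**
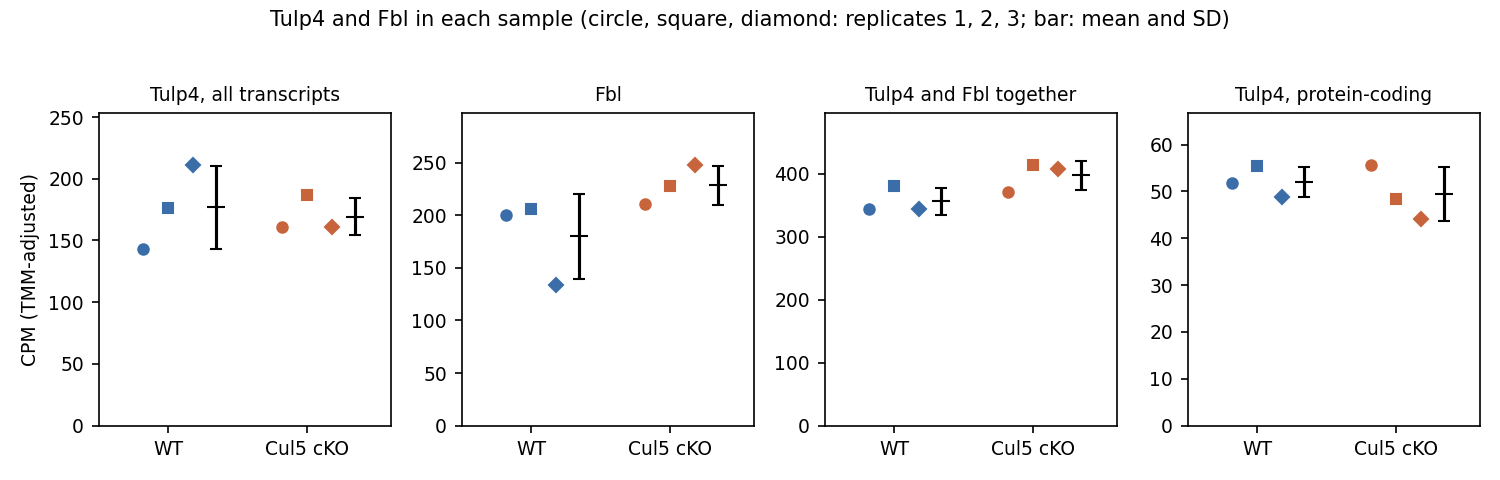
CPM of Tulp4 over all transcripts, of Fbl, of both together and of the protein-coding transcripts of Tulp4 in each of the 6 samples (blue: WT, orange: Cul5 cKO; circle, square and diamond: replicates 1, 2 and 3; bar: mean and SD). WT replicate 3 is highest for Tulp4 (211 CPM) and lowest for Fbl (134 CPM), and the sum of both is 345 CPM there.

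Counts of the other receptors also fell on transcripts that are not annotated as coding. In WT, 18 of the 28 tested genes had over 90% of their counts on protein-coding transcripts and 5 had under 50%, namely Asb5, Asb6, Asb7, Rab40c and Tulp4, chosen for this after their values were seen. Asb6 had 5.49% ± 4.79 of its counts on coding transcripts in WT and 8.20% ± 1.01 in Cul5 cKO (SD, n = 3), and most of its counts were on the retained-intron transcript Asb6-205 (32.3 ± 4.42 CPM in WT). The counts of Asb7 were split between a coding transcript and one annotated for nonsense-mediated decay, with a coding share of 33.7% ± 29.9 in WT, and the coding transcripts had no count in WT replicate 3. Reads of 50 bases seldom span the parts that distinguish such transcripts, and the files give no error for how reads were divided among them.

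Of the 39 receptors, 28 were tested, and 1 of them (3.57%) was called at an adjusted p under 0.05, against 133 of the 12925 genes tested (1.03%). The gene was Pcmtd2, which was lower in Cul5 cKO, as were 0.418% of all genes at this threshold. Over all genes, 2 were called without WT replicate 2 and 2 without WT replicate 3, and 0 receptors in either case. At an unadjusted p under 0.05 there were 5 of 28 (17.9%), 4 lower and 1 higher, against 21.3% of all genes. The 3 samples of one genotype lay wholly on one side of the other's in 7 of 28 (25%), 5 lower and 2 higher, against 27.5% of all genes, of which 13.5% were lower and 14% higher. The median log2 fold change was -0.05 over the 28 genes and -0.01 over all genes tested. It was -0.07 over the 18 tested receptors of the Cul5 type and -0.03 over the 10 of the Cul2 type. For 25 of the 28, the 95% confidence interval of the gene sum over all transcripts excluded a 2-fold change in either direction. The 3 others, Asb5, Neurl2 and Spsb2, had the lowest counts, with intervals reaching from -1.33 to 1.12 on the log2 scale. The intervals do not cover how reads were divided among transcripts or between genes that share sequence. Rab40c, which is among the 25, had a log2 fold change of 1.40 over coding transcripts alone.

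**Figure D3:**
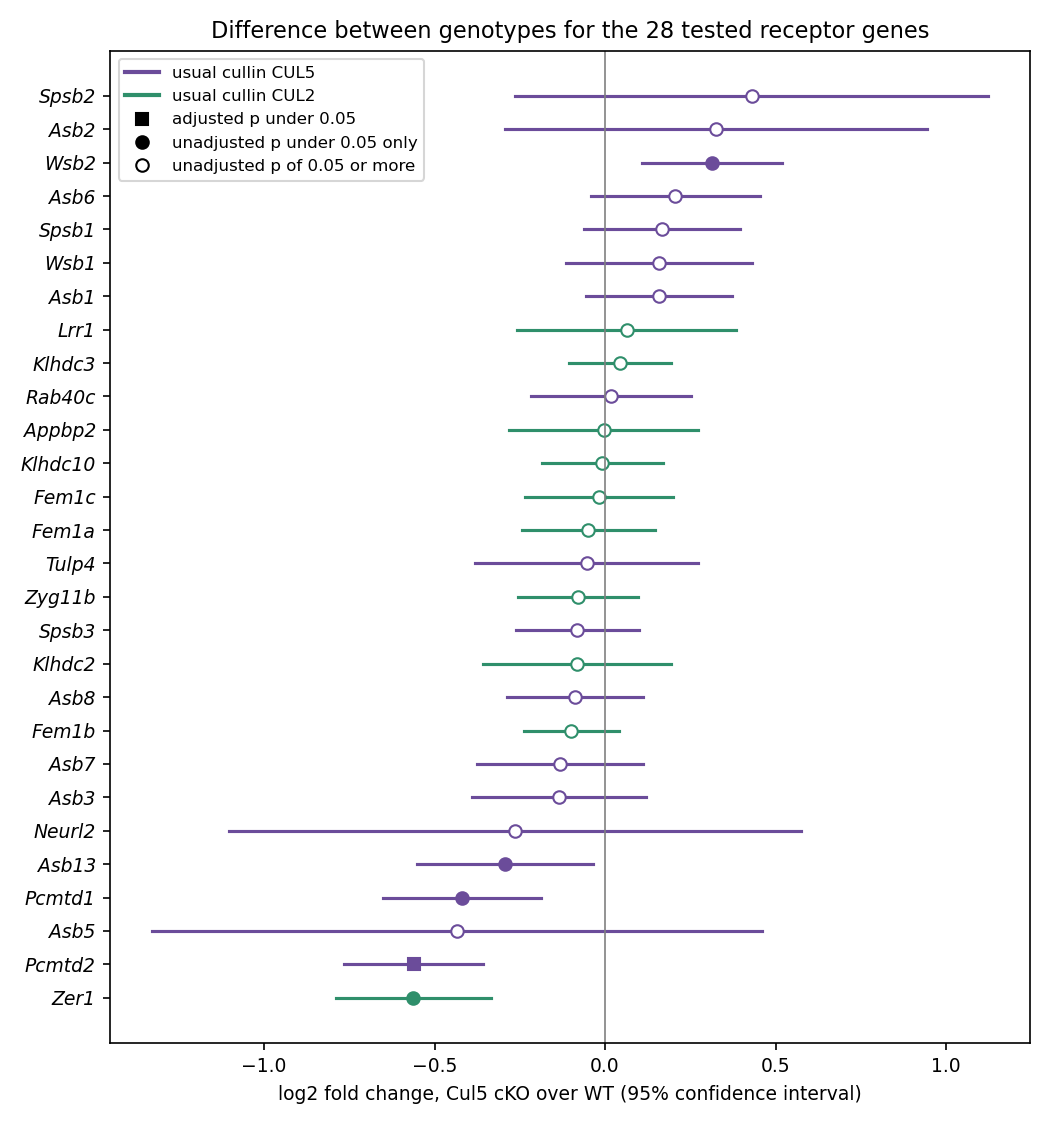
Log2 fold change of Cul5 cKO over WT with its 95% confidence interval for the 28 tested receptor genes (purple: usual partner Cul5, green: usual partner Cul2; filled: unadjusted p under 0.05, square: adjusted p under 0.05). Pcmtd2 and Zer1 lie lowest at -0.56 each, Wsb2 is the only gene above 0 with an interval that excludes 0, and 23 of 28 intervals include 0.

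Above 5 CPM, the largest differences were in the PCMTD pair and in Zer1. PCMTD1 and PCMTD2 are relatives of PCMT1, the methyltransferase that repairs isoaspartate, and carry a SOCS box. Pcmtd2 (chromosome 2, 181837854 to 181857461, plus strand, GRCm38) was at 38.5, 38.8 and 42.5 CPM in WT and at 28.5, 27.4 and 24.7 CPM in Cul5 cKO. All 3 Cul5 cKO samples were lower than all WT samples, and the mean was 67.4% of WT. The log2 fold change was -0.56 (SE 0.0867, 95% confidence interval -0.76 to -0.36, adjusted p = 0.0375, edgeR). The call was lost without WT replicate 2, WT replicate 3 or any one of the 3 Cul5 cKO replicates (adjusted p from 0.0524 to 0.160, edgeR). It was lost with the 5 deeper libraries thinned to the depth of WT replicate 3 (adjusted p = 0.0595, edgeR, where 1.25% of all genes were called). The same held with counts scaled from TPM, in the 3 limma fits and over protein-coding transcripts. Pcmtd2 was called in 9 of the 20 alternatives. The adjusted p reached 0.203 over them (edgeR, DESeq2 or limma), while the fold change stayed between -0.63 and -0.45.

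Pcmtd1 (chromosome 1, 7088920 to 7173628, plus strand) was at 28.5, 30.2 and 34.9 CPM in WT and at 22.4, 24.3 and 22.5 CPM in Cul5 cKO. Its groups did not overlap either, with a log2 fold change of -0.42 (95% confidence interval -0.65 to -0.19) that did not pass the adjusted threshold (adjusted p = 0.0939, edgeR). No window of 50 bases of any Pcmtd2 transcript occurs in a transcript of another gene, and the longest Pcmtd1 transcript shares 8 of 5183 windows with 1 other gene, Gm6031, so reads of this length from the pair are nearly all distinct from those of other genes. Over protein-coding transcripts alone the log2 fold changes were -0.63 for Pcmtd2 (adjusted p = 0.0515, edgeR, where 0.707% of all genes were called) and -0.50 for Pcmtd1. Coding transcripts held 92.0% ± 2.03 of Pcmtd2 counts in WT and 54.4% ± 3.39 of Pcmtd1 counts (SD, n = 3), the rest of Pcmtd1 being on retained-intron and other non-coding transcripts.

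ZER1 and ZYG11B are Cul2 receptors for proteins with an N-terminal glycine. Zer1 (chromosome 2, 30097283 to 30124585, minus strand) was at 66.6, 74.8 and 83.5 CPM in WT and at 50.4, 53.6 and 47.1 CPM in Cul5 cKO, so that the groups did not overlap and the mean was 67.2% of WT. The log2 fold change was -0.56 (95% confidence interval -0.79 to -0.34), and its adjusted p of 0.0506 (edgeR) was just over the threshold. The gene passed it in 8 of the 20 alternatives, DESeq2 among them (adjusted p = 0.000315, in a fit that called 5.36% of all genes). It did not pass with any 1 sample other than WT replicate 1 left out, with thinned libraries or with counts scaled from TPM. Nor did it pass in the 3 limma fits, over protein-coding transcripts or with DESeq2 size factors in edgeR. The adjusted p reached 0.212 over the alternatives (edgeR, DESeq2 or limma), and the fold change stayed between -0.66 and -0.49. Zyg11b, its partner in substrate range, had 101, 101 and 110 CPM in WT and 106, 94.8 and 94.2 CPM in Cul5 cKO. These overlapped, with a log2 fold change of -0.08 (95% confidence interval -0.25 to 0.10). The difference between the 2 genes' fold changes was not tested.

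Wsb2 was the only receptor with an unadjusted p under 0.05 that was higher in Cul5 cKO. WSB1 and WSB2 recognize substrates through WD40 repeats, and WSB1 is known for the deiodinase that activates thyroid hormone. Wsb2 (chromosome 5, 117357304 to 117378601, plus strand) was at 44.6, 45.9 and 40.5 CPM in WT and at 49.8, 55.0 and 59.2 CPM in Cul5 cKO, without overlap. Its log2 fold change of 0.31 (95% confidence interval 0.11 to 0.52) did not pass the adjusted threshold (adjusted p = 0.120, edgeR). On the TPM scale the log2 difference was 0.13. The counts of transcript Wsb2-201 were at 31.1, 39.2 and 24.3 CPM in WT and at 39.2, 43.1 and 49.8 CPM in Cul5 cKO, whereas those of Wsb2-202 overlapped more widely. The end of Wsb2-201 lies over 499 bases of Rfc5 on the other strand, and whether the library kept strand is not given in the sources used here. Rfc5, a clamp loader subunit, was at 103, 96.4 and 94.1 CPM in WT and at 97.6, 104 and 98.8 CPM in Cul5 cKO. Wsb1 had 91.2, 108 and 102 CPM in WT and 94.6, 123 and 119 CPM in Cul5 cKO. These groups overlapped and replicate 1 was the lowest of each genotype, with a log2 fold change of 0.16 (95% confidence interval -0.11 to 0.43).

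The ASB family, which binds substrates through ankyrin repeats, had 8 tested members of 17, with fold changes on both sides of 0. Of these, 0 were called and 1 (12.5%) had an unadjusted p under 0.05 (edgeR), against 1.03% and 21.3% of all genes. That gene was Asb13, a receptor known for the transcription factor KLF4. It was at 13.9, 14.1 and 14.9 CPM in WT and at 12.5, 11.7 and 10.7 CPM in Cul5 cKO, without overlap. The log2 fold change was -0.29 (95% confidence interval -0.55 to -0.04, adjusted p = 0.191, edgeR) from summed counts and -0.61 from counts scaled from TPM. On the TPM scale, the short retained-intron transcript Asb13-203 had 2.4, 2.9 and 4.1 TPM in WT and 1.3, 1.6 and 1.0 TPM in Cul5 cKO, while over coding transcripts alone the log2 fold change was -0.23.

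Asb1 was at 16.9, 18.3 and 17.0 CPM in WT and at 19.6, 18.6 and 20.1 CPM in Cul5 cKO. The groups were separated by a gap of under 0.3 CPM, and the log2 fold change of 0.16 (95% confidence interval -0.06 to 0.37) turned to between -0.04 and -0.02 in the 3 limma fits. Asb2, which directs filamins to degradation and was chosen here after its values were seen, was the most variable of the ASB genes above 5 CPM. It was at 17.9, 9.21 and 11.1 CPM in WT and at 19.7, 15.7 and 13.3 CPM in Cul5 cKO. Replicate 1 was highest in each genotype, and the log2 fold change of 0.33 (95% confidence interval -0.29 to 0.94, adjusted p = 0.518, edgeR) was 0.71 without WT replicate 1 and 0.10 at its lowest with another sample left out. Asb3, Asb5, Asb7 and Asb8 had log2 fold changes from -0.43 to -0.09 and Asb6 had 0.21, each with an interval that included 0. That of Asb3 was -0.13 here and 0.13 in the limma fit on the deposited log2 CPM.

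The SPSB genes had 3 tested members of 4, and none was called or at an unadjusted p under 0.05, against 1.03% and 21.3% of all genes. Spsb1 was at 114, 109 and 107 CPM in WT and at 138, 124 and 107 CPM in Cul5 cKO. Cul5 cKO replicate 3 was as low as the lowest WT sample, and the log2 fold change was 0.17 (95% confidence interval -0.06 to 0.40). Spsb2 was low, at 1.77 ± 0.359 CPM for the WT samples and 2.44 ± 0.589 CPM for the Cul5 cKO samples (SD, n = 3). Spsb3 had a log2 fold change of -0.08 (95% confidence interval -0.26 to 0.10), and 60.5% of the windows of Spsb3-205 also occur in Eme2 on the other strand, so that its level is uncertain.

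Rab40c, a Rab-like GTPase with a SOCS box, was chosen here after its values were seen, because its gene sum and its transcripts differed. The gene was at 15.8, 15.01 and 17.5 CPM in WT and at 16.2, 15.6 and 16.6 CPM in Cul5 cKO, a log2 fold change of 0.02 (95% confidence interval -0.22 to 0.25) that took either sign across the alternatives. Its non-coding transcript Rab40c-205 had 8.76, 11.5 and 11.4 CPM in WT and 7.85, 4.08 and 1.03 CPM in Cul5 cKO. Over coding transcripts alone the log2 fold change was 1.40, which did not pass the adjusted threshold (adjusted p = 0.154, edgeR). The coding share of its counts was 34.9%, 14.7% and 23.4% in WT and 40.4%, 67.2% and 87.4% in Cul5 cKO, with every Cul5 cKO sample above every WT sample and replicate 1 closest between the genotypes.

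The Cul2 receptors for C-terminal degrons and their relatives had intervals that included 0. These reached from -0.36 (lower bound for Klhdc2) to 0.38 (upper bound for Lrr1) on the log2 scale. Fem1b, known for the response to reductive stress, was at 94.2, 92.6 and 90.6 CPM in WT and at 88.9, 84.0 and 86.4 CPM in Cul5 cKO. The groups did not overlap, but the difference was small, with a log2 fold change of -0.10 (95% confidence interval -0.24 to 0.04). Fem1a and Fem1c had log2 fold changes of -0.05 and -0.02. Klhdc3 was at 82.7, 85.7 and 84.3 CPM in WT and at 82.1, 88.9 and 89.6 CPM in Cul5 cKO, a log2 fold change of 0.04 (95% confidence interval -0.11 to 0.19). Klhdc2 was at 55.1, 56.8 and 55.7 CPM in WT and at 43.4, 54.9 and 59.9 CPM in Cul5 cKO. Here Cul5 cKO replicate 1 lay below the other 5 samples, and the log2 fold change of -0.08 became 0.04 without it. Klhdc10, Lrr1, the receptor that unloads the replicative helicase, and Appbp2 had log2 fold changes between -0.01 and 0.06, and these 3 took either sign across the alternatives, as did Fem1a and Fem1c. Klhdc2 and Klhdc3 share 6.30% and 8.39% of the windows of their first coding transcripts with Nemf and Mea1 on the other strand.

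**Figure D4:**
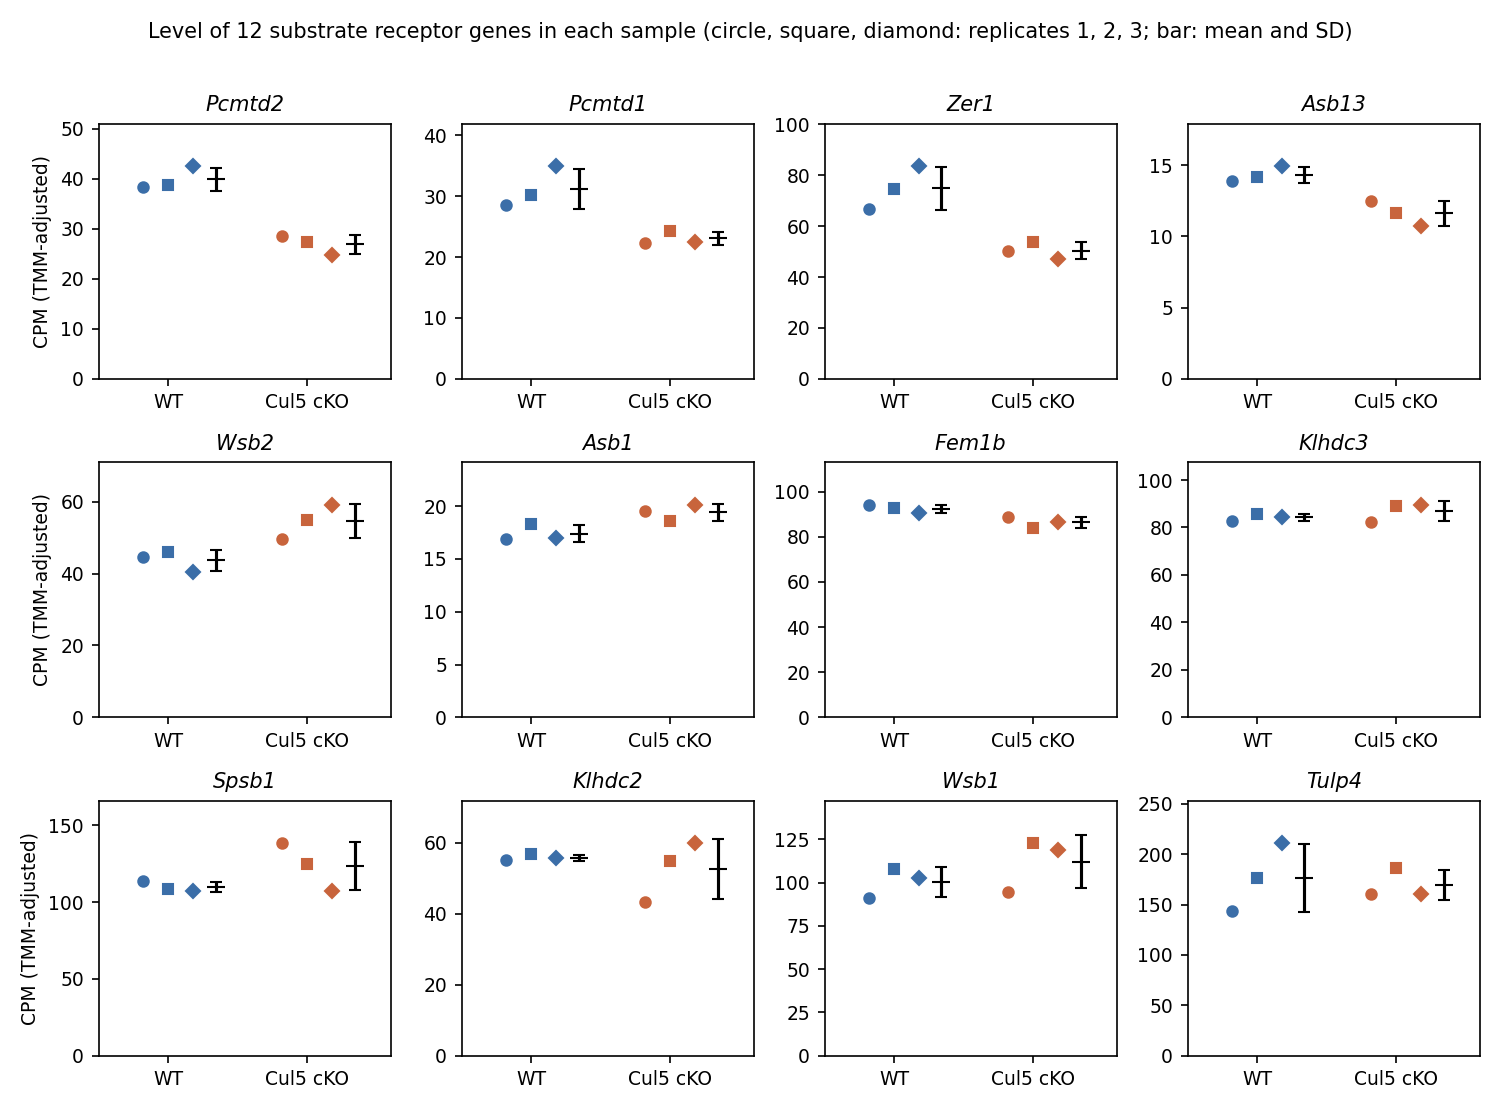
CPM of 12 receptor genes in each sample, from 0 (blue: WT, orange: Cul5 cKO; circle, square and diamond: replicates 1, 2 and 3; bar: mean and SD). Pcmtd2, Pcmtd1, Zer1, Asb13 and Fem1b are lower in all Cul5 cKO samples, Wsb2 and Asb1 are higher in all, and the other 5 genes overlap.

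The subunits and activators that these receptors work with were given by a list of 12 genes for Cul5, Cul2, the RING proteins, the elongins, the neddylation enzymes, the ARIH ligases, Nedd8 and Cand1. Of the 12, Cul5 alone was called and 0 were called higher, against 0.611% of all genes called higher. The genes of the docking subunits, Elob and Eloc, had log2 fold changes of 0.09 and 0.20, each not called. Cul2, the partner of the other receptors, had 75.3, 68.7 and 70.9 CPM in WT and 77.9, 73.8 and 78.8 CPM in Cul5 cKO. Its log2 fold change was 0.10 (adjusted p = 0.428, edgeR). This was below 0 in the fits on TPM and on the deposited log2 CPM, and 0.54 over protein-coding transcripts alone. Those transcripts held 7.45 ± 2.62 of 45.5 TPM in WT and 11.4 ± 0.628 of 39.2 TPM in Cul5 cKO (SD, n = 3). Cul2 was called in 0 of the 20 alternatives. Ube2m, the enzyme that passes Nedd8 to Cul2 among other cullins, was at 181, 163 and 168 CPM in WT. It was at 207, 198 and 208 CPM in Cul5 cKO, without overlap, a log2 fold change of 0.26 (unadjusted p = 0.00437, adjusted p = 0.104, edgeR). The gene was called in 3 of the 20 alternatives. Over protein-coding transcripts alone its log2 fold change was 0.10. The coding level was not higher on the TPM scale, at 135 ± 32.2 TPM in WT and 130 ± 2.58 TPM in Cul5 cKO (SD, n = 3). Of 6 further receptors of the same kinds, 4 were tested and 0 were called, against 1.03% of all genes. Klhdc1, the close relative and genome neighbour of Klhdc2, was at 6.92, 7.79 and 11.1 CPM in WT and at 4.91, 4.91 and 4.13 CPM in Cul5 cKO, a log2 fold change of -0.85 (adjusted p = 0.109, edgeR).

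**Figure D5:**
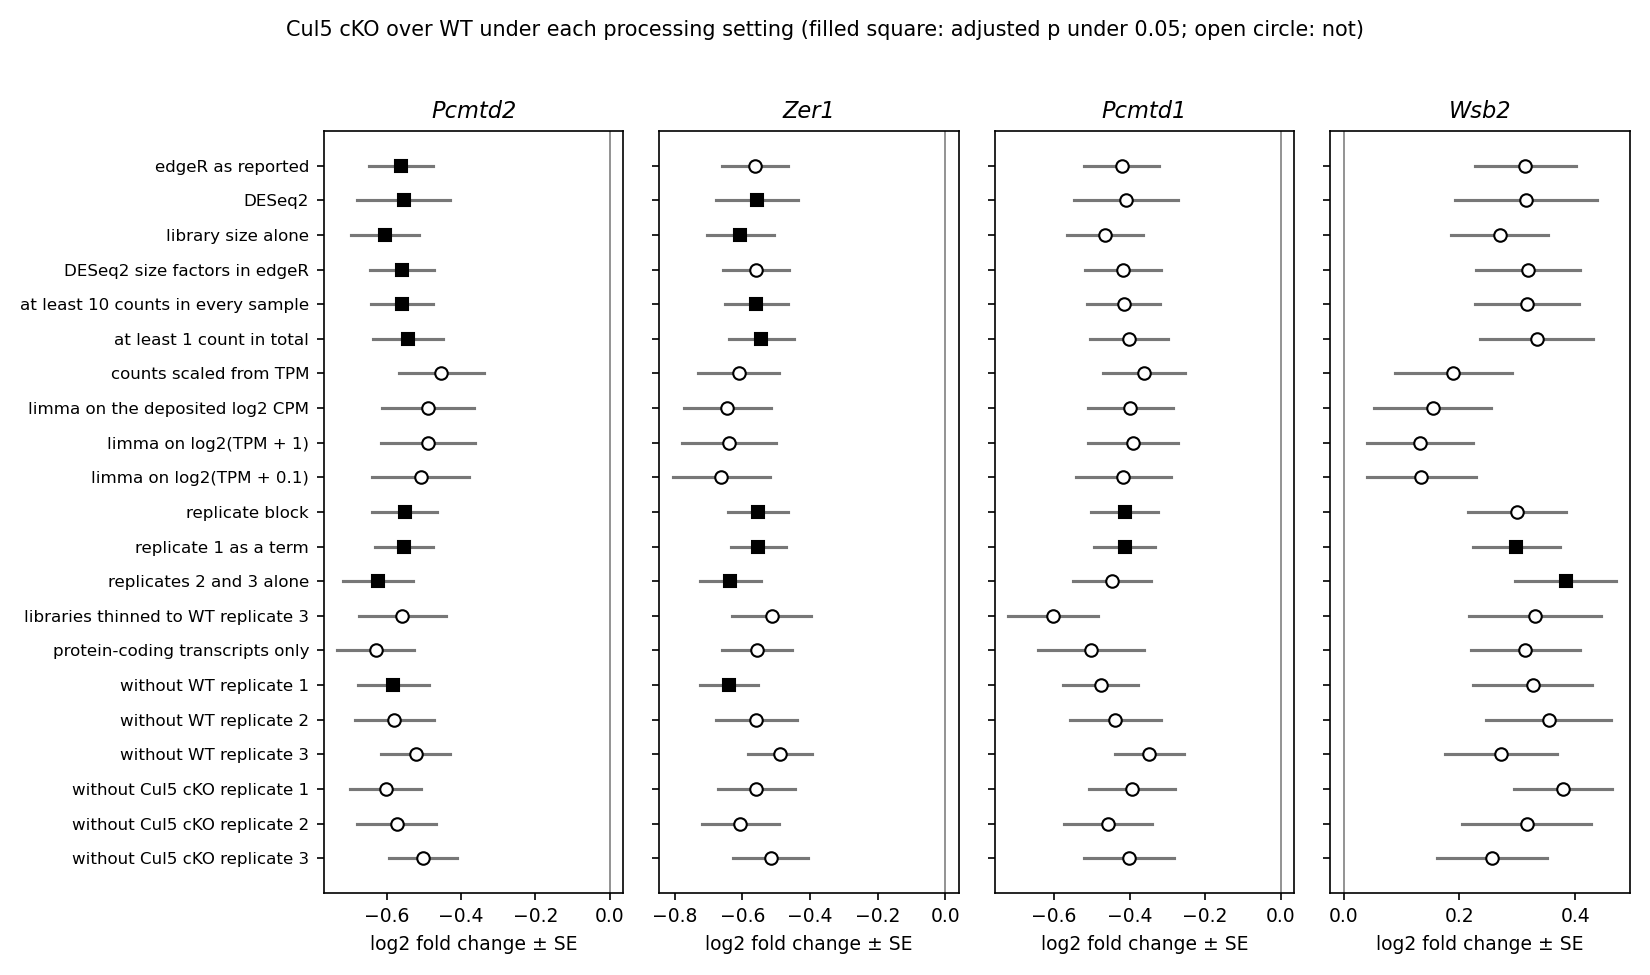
Log2 fold change of Cul5 cKO over WT with its SE for Pcmtd2, Zer1, Pcmtd1 and Wsb2 in the fit reported here (top row) and in each of the 20 alternatives. No point crosses 0, and the adjusted p was under 0.05 in 9 alternatives for Pcmtd2, 8 for Zer1, 2 for Pcmtd1 and 2 for Wsb2 (filled squares).

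The exact permutation test of 3 samples against 3 cannot give a p below 0.1, two-sided, and gave 0.1 for each of the 7 receptors whose groups did not overlap.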

How the data were processed

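Poly-A RNA of Th9 cultures at 48 h was sequenced in 6 samples, 3 for each genotype. The authors pseudo-aligned reads to GRCm38 transcripts with kallisto 0.46.2 and deposited estimated counts and TPM for 119414 transcripts in each sample, and a gene-level table of log2 CPM normalized with edgeR 3.34.0. Its columns of fold changes and p-values were not used.

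Transcripts were summed to genes with GENCODE vM21 (116640 matched, 97.7%; the rest held 0.958% to 1.04% of counts), and sums were rounded. Genes kept by edgeR's expression filter (12925) were tested with its quasi-likelihood test (edgeR 4.0.16, R 4.3.3; TMM, Benjamini-Hochberg over all genes tested, threshold 0.05). Intervals for fold changes use the test's degrees of freedom. A floor of 3 counts equals 0.759 CPM in WT replicate 3 and 0.128 to 0.133 CPM in the others. Alternatives used DESeq2 1.42.0, limma 3.58.1, other scalings and filters, thinned libraries and samples left out. The fit over protein-coding transcripts was added after seeing the data. Fits were tested on simulated data. Shared sequence was searched with blastn 2.17.0 and by windows of 50 bases in Python 3.11.15.

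The receptors and lists were chosen with earlier results of these data known. Per-sample values are given for receptors with an unadjusted p under 0.05 or without overlap, for the 6 highest by TPM in WT, for receptors whose fold changes from summed and TPM-scaled counts had opposite signs and lay over 0.3 apart on the log2 scale (0 genes), and for genes of the lists of ligase subunits and further receptors with an unadjusted p under 0.05. Outside this rule, they are also given for Asb2, Rab40c, Zyg11b, Cul2 and some genes that share sequence with receptors, and as counts for Asb14 and Klrb1c.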

Additional observations from a re-analysis of the deposited data

How the results depend on the processing

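The number of receptors called was 1 as reported. It was 2 with DESeq2, with library size alone, with at least 10 counts in every sample and with at least 1 count in total. Pcmtd2 and Zer1 were the 2 genes in each. These were 7.14%, 7.14%, 8% and 5.71% of the receptors tested. Of all genes tested, 693 of 12925 (5.36%), 149 of 12925, 145 of 10545 and 228 of 22400 were called in these fits. The number of receptors called was 0 with counts scaled from TPM and with limma on the deposited log2 CPM, on log2(TPM + 1) and on log2(TPM + 0.1). It was also 0 with libraries thinned to WT replicate 3 and over protein-coding transcripts. It was 5 (17.9%) with replicate 1 as a term, against 1688 of 12925 genes. With replicates 2 and 3 alone it was 3 (10.7%), against 1153 of 13055 genes. With 1 sample left out it was 0 to 2. The 2 (7.14%) were without WT replicate 1, against 316 of 13213 genes. Over all genes the 133 called became 693 with DESeq2, 228 with at least 1 count in total, 61 with counts scaled from TPM, 42, 27 and 30 with limma on the deposited log2 CPM, log2(TPM + 1) and log2(TPM + 0.1), 1688 with replicate 1 as a term, 1153 with replicates 2 and 3 alone and 84 over protein-coding transcripts. Leaving out 1 sample gave 2 to 316. The highest count came without WT replicate 1, the 2 lowest, 2 each, when WT replicate 2 or 3 was dropped, and dropping Cul5 cKO replicate 2 or 3 gave 45 and 3. The causes were not tested. The median log2 fold change of the receptors was -0.10 with library size alone, where the median of all genes was -0.05, and moved by less than the spread between replicates otherwise.

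With the replicate number as a block, 3 of the 28 receptors (10.7%) were called, namely Pcmtd1, Pcmtd2 and Zer1, against 848 of 12925 genes. The deviations of same-numbered samples correlated at 0.37, 0.21 and 0.02, and those of differently numbered samples at -0.33 to 0.20. WT replicate 1 correlated best with its own number, and WT replicate 2 only just (0.20 with Cul5 cKO replicate 3). WT replicate 3 correlated better with Cul5 cKO replicate 2 (0.09) than with its own number. The root mean square log2 distance of WT replicate 1 was 0.45 to Cul5 cKO replicate 1 and 0.50 to WT replicate 2. The labels do not say whether same-numbered samples belong together, so the fit reported here used no block. A shared structure by number is not excluded.

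Of the 28 tested receptors, 16 kept the sign of their fold change in every alternative run and 12 did not. In the limma fits on the deposited log2 CPM, log2(TPM + 1) and log2(TPM + 0.1), Asb1 was at -0.0222, -0.0370 and -0.0417, Rab40c at -0.13, -0.14 and -0.15 and Cul2 at -0.0907, -0.204 and -0.209. In the first of these fits Asb3 was at 0.126, Fem1c at 0.0169, Lrr1 at -0.0241 and Appbp2 at 0.0115. With counts scaled from TPM, Rab40c was at -0.0819, Fem1c at 0.0221, Appbp2 at 0.0455 and Cul2 at -0.154. Over protein-coding transcripts, Asb7 was at 0.0973 and Spsb3 at 0.00449. With thinned libraries, Rab40c was at -0.17, Fem1c at 8.03e-05, Klhdc10 at 0.160, Lrr1 at -0.0987 and Appbp2 at 0.00361. With at least 1 count in total, Fem1c was at 0.00155, Klhdc10 at 0.0119 and Appbp2 at 0.0160. With replicates 2 and 3 alone, Klhdc2 was at 0.0294 and Klhdc10 at 0.00495. Rab40c was at -0.0256 with library size alone, and Appbp2 was at 0.000765 with DESeq2, 0.000185 with at least 10 counts in every sample and 0.000911 with replicate 1 as a term. With 1 sample left out, Tulp4 ranged from -0.183 to 0.0848 (without WT replicate 3), Klhdc2 from -0.183 to 0.0421 (without Cul5 cKO replicate 1), Rab40c from -0.0273 to 0.0681, Fem1a from -0.109 to 0.00575, Fem1c from -0.0680 to 0.0906, Klhdc10 from -0.0505 to 0.0514, Lrr1 from -0.0237 to 0.144 and Appbp2 from -0.101 to 0.0947. The cause was not tested. Receptors below 5 CPM had few counts in WT replicate 3, and their intervals are wide.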
